A study of Mus musculus with 28 samples.

Results

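Malat1, Neat1, Gas5, Snhg1, Snhg12, Dleu2, Pvt1 and Kcnq1ot1 are 8 long noncoding RNAs of the nucleus or of growth arrest, and they were followed here among the 25124 genes of the deposited table. They were selected on their gene symbols, from a list drawn up with the values of all 28 libraries known. Levels and folds between groups therefore describe the members, and the tests set each difference against the spread between libraries without being independent evidence. All 8 carry the type ncRNA, as do 3761 rows of the table, and all 8 passed the filter on low values that left 12182 genes.

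CD4+ T cells were sorted from the small intestinal lamina propria as live, CD45+, CD90.2+ and TCRb+ cells. All mice carried the T-bet-ZsGreen reporter, controls included, and their age is not given in the sources used here. Specific-pathogen-free (SPF) mice, which have a gut flora, gave 6 libraries after an isotype control antibody and 6 after aCD3, an antibody against the CD3 chains of the T cell receptor complex, with 3 females and 3 males in each group. Germ-free (GF) mice, which lack a flora, gave 10 isotype libraries (5 females, 5 males) and 6 aCD3 libraries (1 female, 5 males). Libraries are named by sex letter and number, and nothing in the labels says that they came from separate animals, so p-values may measure only the spread between these samples.

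Values are in TPM, a read share per gene length, scaled to each library's total, and the authors divided reads by the whole genomic span of a gene, introns included. The SPF libraries held 10293604 to 13193754 gene reads after isotype and 8452636 to 12081454 after aCD3. The GF libraries held 6765529 to 17860629 after isotype and 7804782 to 17793826 after aCD3. Histone genes took 23.78 to 26.84% of TPM in SPF aCD3 against 4.05 to 7.04% in SPF isotype, and any gene's share falls as theirs rises. The aCD3 comparisons of the members are therefore also given after scaling each library by the median of its gene ratios, which moved the median log2 change of all genes in SPF from -0.35 to -0.01. Summed levels of 5 CD4 T cell markers were 1202.7 to 1707.6 TPM over all groups. Summed levels of 7 B and plasma cell markers were 95.8 to 271.6 TPM in SPF isotype and 2.55 to 8.82 in SPF aCD3, while GF libraries reached 114.4 after isotype and 97.7 after aCD3. Those of 7 stromal markers were 15.0 to 50.8 TPM in SPF isotype and 2.86 to 6.02 in SPF aCD3, where Col1a2 was listed at 0. The 2 CD8 markers summed to a median of 8.11 TPM in SPF isotype and 17.1 in SPF aCD3, and 8 myeloid markers to at most 13.0 and 97.4 TPM. In GF isotype the CD8 sum reached 61.2 TPM. The sum of 5 erythroid markers was 2.29 to 10.2 TPM in SPF isotype and 0.716 to 1.28 in SPF aCD3. The part of these cells and of the histone share in the results below was not tested. In bulk samples, fewer cells of a type and less RNA per cell cannot be told apart.

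Malat1 is an abundant RNA of nuclear speckles, the bodies that store splicing factors, and Neat1 is the scaffold of paraspeckles, nuclear bodies built on RNA. Gas5, Snhg1 and Snhg12 are host genes of small nucleolar RNAs, which lie in their introns and guide the modification of ribosomal RNA, while their spliced exons are short-lived through nonsense-mediated decay during translation. Dleu2 hosts miR-15a and miR-16, Pvt1 lies beside Myc, and Kcnq1ot1 silences an imprinted cluster in cis.

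The processed end of Malat1 is printed first because it holds the tRNA-like mascRNA that is cut from the transcript, which leaves the long RNA with an end that is not polyadenylated in the usual way. It lies at chr19:5795924-5796021 on the minus strand of GRCm38 (GENCODE M21 transcript), and the capitals mark mascRNA.
Malat1 end: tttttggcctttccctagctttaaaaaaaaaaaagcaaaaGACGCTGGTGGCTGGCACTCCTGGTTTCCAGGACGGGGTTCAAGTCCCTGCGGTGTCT
The stretch before the capitals is the A-rich and U-rich tract of the transcript's own end. The row of mascRNA, annotated as Mascrna, held 8 reads over all libraries against 2209056 for Malat1.

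Promoter windows show the start sites of the snoRNA host genes beside that of Malat1, since a start within a run of C and T marks the genes of the translation machinery known as TOP genes. They are from RefSeq on GRCm38.p6, with 10 bases before and 40 from the start on, and capitals mark the longest run of C and T that overlaps the bases from 5 before to 10 after the start.
Gas5, second start, chr1:161035156-161035205, plus strand: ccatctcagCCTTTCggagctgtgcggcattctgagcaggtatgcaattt
Snhg12, chr4:132308668-132308717, plus strand: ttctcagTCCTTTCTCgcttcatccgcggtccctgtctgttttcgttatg
Snhg1, chr19:8723477-8723526, plus strand: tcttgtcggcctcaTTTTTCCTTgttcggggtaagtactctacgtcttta
Malat1, chr19:5802633-5802682, minus strand: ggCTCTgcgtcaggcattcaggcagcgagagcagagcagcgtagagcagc
The runs were 9 bases long in Snhg12 and Snhg1, a length reached by 7.89% of 32851 promoter windows, 6 bases in Gas5 (24.4%) and 4 bases in Malat1 (56.0%). The start lay within the run in Snhg12 and at the second start of Gas5, while the Snhg1 run began 5 bases into the transcript and the Malat1 run ended before the start. Dleu2, which hosts no snoRNA, had the longest run, of 13 bases (2.49%), which also ended before the start, while the first start of Gas5 had 3 (75.9%) and Kcnq1ot1 had 2 (93.4%). The letters CTTTC, searched on the printed strand, were found from 5 bases before to 10 after the start in Gas5 and Snhg12, and there in 1.66% of the windows. The RefSeq table holds windows for 6 members, and Neat1 and Pvt1 have no entry.

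A box C/D snoRNA is printed for each of 2 host genes, to show the small RNAs that lie inside them. Snord22, inside Snhg1, did not hold TGATGA, the letters searched for the C box, and is not printed. Snord47 (chr1:161038082-161038158, plus strand, within Gas5) and Snord99 (chr4:132310691-132310764, plus strand, within Snhg12) have their C and D boxes in capitals.
Snord47: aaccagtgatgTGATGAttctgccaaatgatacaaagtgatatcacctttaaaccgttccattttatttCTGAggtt
Snord99: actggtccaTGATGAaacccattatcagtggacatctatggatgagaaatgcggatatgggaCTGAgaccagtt
Dleu2 carries 2 microRNAs with one seed (bases 2 to 8, in capitals), whose mature arms lie at chr14:61632075-61632096 and chr14:61631936-61631957 on the minus strand.
mmu-miR-15a-5p: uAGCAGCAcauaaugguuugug
mmu-miR-16-5p: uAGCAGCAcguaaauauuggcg
Both arms share the seed AGCAGCA, which 10 mature mouse names carry.

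Malat1 stood far above the other members per length of gene. In SPF isotype libraries it ranged from 5897.2 to 11107.5 TPM with a median of 9121.0. The labels name polyA RNA and the design text a total RNA kit. Which holds was not settled, and because the end of Malat1 is not polyadenylated in the usual way, its level relative to the other members could depend on it. Gas5 followed with a median of 192.3 TPM. Next came Snhg1 (median 78.8), Neat1 (71.9) and Snhg12 (62.4), and these neighbours in the order overlapped in range. Dleu2 (12.9), Kcnq1ot1 (7.54) and Pvt1 (5.02) were lowest, with overlap between the last 2, and reads were divided by whole spans, of which exons make up 14.2% of the Dleu2 row and 2.02% of the Pvt1 row.

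In SPF mice all 8 members were lower after aCD3 than after isotype. By folds of mean TPM, Malat1, Pvt1 and Kcnq1ot1 fell most, and on the log2(TPM + 1) scale Malat1, Pvt1 and Snhg12. Dleu2 fell least on both. For 7 members, all but Dleu2, every one of the 6 SPF aCD3 libraries lay below every SPF isotype library, a separation that 33.4% of the genes tested also showed. All 8 were called lower, as were 50.7% of genes, while 14.2% of genes were called higher. These shares used the contrast on which the list was drawn up, so nothing is read from them. After median-of-ratios scaling 8 remained called lower, and 3727 genes were higher and 3575 lower, against 1726 and 6172 without it.

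**Figure D1:**
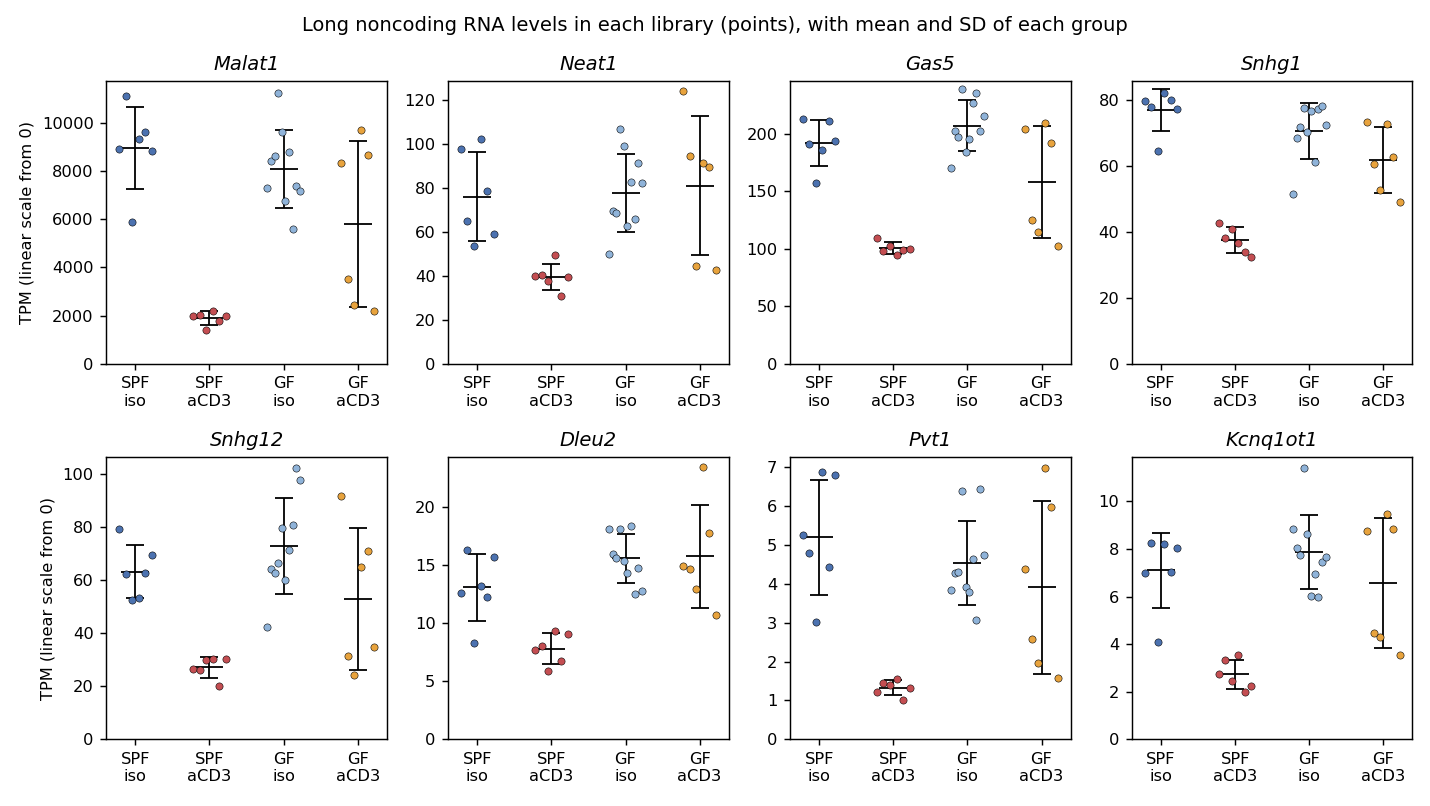
TPM of the 8 members (linear axes from 0) in each of the 28 libraries by group, 1 point per library, with bars for the group mean and SD. SPF aCD3 libraries lie below the SPF isotype libraries for 7 members, while GF aCD3 libraries of Malat1 run from 2197.6 to 9719.6 TPM.

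Malat1 (chr19:5795690-5802672, minus strand), which influences splicing and transcription from nuclear speckles, had a median of 9121.0 TPM in SPF isotype. SPF aCD3 libraries ranged from 1417.4 to 2194.0 TPM with a median of 1982.7, so the groups were far apart. The mean fell 4.72-fold, from 8947.1 ± 1707.9 to 1896.4 ± 272.4 TPM (SD, n = 6 each), and 3.49-fold after scaling. On the log2(TPM + 1) scale the change was -2.23 ± 0.29 (SE), and -1.80 after scaling.

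Neat1 (chr19:5842296-5845480, minus strand) has a row that covers 15.3% of the annotated span, at its 5′ end. Short and long isoforms share this stretch, so the values are not specific to either. SPF isotype libraries ranged from 53.8 to 102.2 TPM (median 71.9) and SPF aCD3 libraries from 30.8 to 49.4 TPM (median 39.8). The mean fell 1.92-fold, or 1.43-fold after scaling, with a log2 change of -0.90 ± 0.23.

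The ratio of Malat1 to Neat1, which no scaling of libraries can move, was 122.3 ± 32.1 (SD, n = 6) after isotype and 48.3 ± 6.6 (n = 6) after aCD3 in SPF mice. In GF mice it was 106.5 ± 20.6 after isotype (n = 10) and 69.0 ± 27.1 after aCD3 (n = 6). The SPF ranges, 91.1 to 170.7 and 37.8 to 57.3, did not overlap. The Malat1 level was lower relative to Neat1 in each SPF aCD3 library than in any SPF isotype library.

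**Figure D2:**
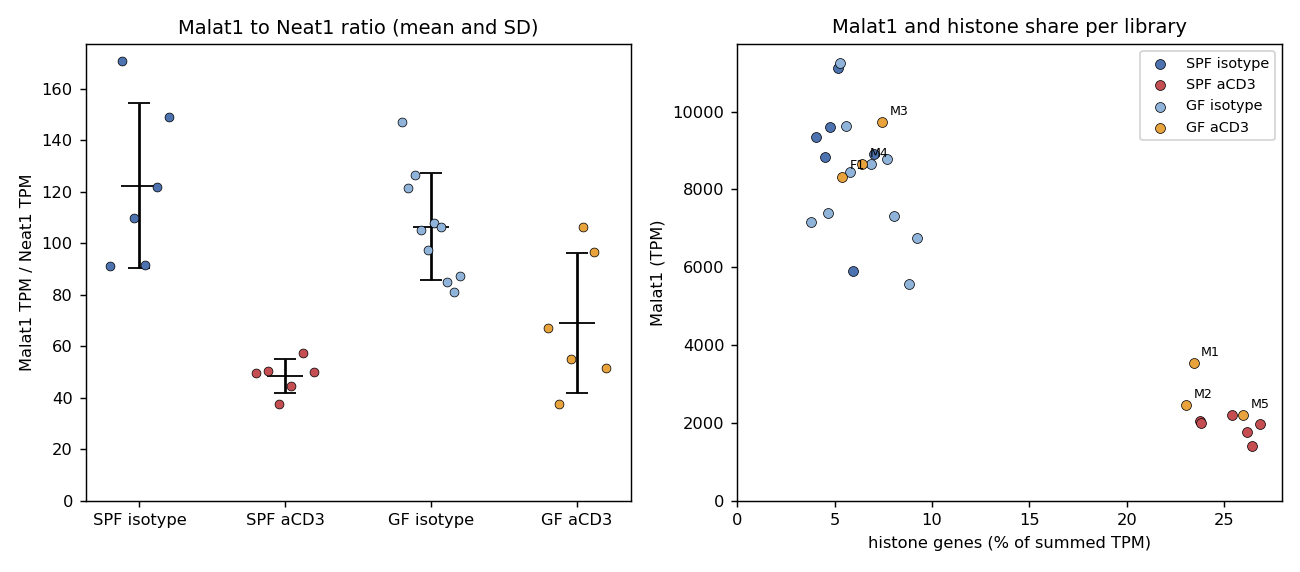
The Malat1 to Neat1 ratio by library, with bars for the group mean and SD, and the Malat1 level (TPM) against the share of TPM in histone genes (percent), 1 point per library, coloured by group. Libraries with a histone share above 23% have the lowest Malat1 levels, and GF aCD3 libraries lie at both ends.

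Among the snoRNA hosts, Gas5 (chr1:161034916-161038539, plus strand), named for its rise in growth-arrested cells, was at 157.1 to 212.4 TPM in SPF isotype (median 192.3) and at 94.5 to 109.6 TPM in SPF aCD3 (median 99.2). It fell 1.91-fold, or 1.42-fold after scaling, with a log2 change of -0.92 ± 0.14. Snhg1 (chr19:8723487-8726326, plus strand) was at 64.6 to 82.1 TPM (median 78.8) and 32.4 to 42.8 TPM (median 37.5), a 2.05-fold fall, 1.53-fold after scaling, and a log2 change of -1.02 ± 0.11. Snhg12 (chr4:132308678-132311024, plus strand) was at 52.6 to 79.2 TPM (median 62.4) and 20.2 to 30.3 TPM (median 28.2), a 2.33-fold fall, 1.74-fold after scaling, and a log2 change of -1.19 ± 0.24. The groups did not overlap for any of the 3 hosts.

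Pvt1 (chr15:62037986-62250976, plus strand), a long noncoding gene beside Myc, was at 3.02 to 6.87 TPM in SPF isotype (median 5.02) and 1.02 to 1.54 TPM in SPF aCD3 (median 1.36). It fell 3.91-fold, or 2.89-fold after scaling, and its log2(TPM + 1) change of -1.38 ± 0.22 understates this low gene. Kcnq1ot1 (chr7:143213111-143296547, minus strand) was at 4.09 to 8.24 TPM (median 7.54) and 1.98 to 3.53 TPM (median 2.62), a 2.60-fold fall, 1.93-fold after scaling, and a log2 change of -1.11 ± 0.19. Kcnq1 spans it on the plus strand, and the reads of the Kcnq1ot1 row were 99.2% of those of the Kcnq1 row (97.6 to 100.0% per library) in 26.1% of its length. The signal of the Kcnq1 row thus lay almost wholly in the Kcnq1ot1 span, within which reads of either strand cannot be told apart since strand use is not stated. Dleu2 (chr14:61602836-61682373, minus strand) was at 8.35 to 16.4 TPM (median 12.9) and 5.91 to 9.38 TPM (median 7.90). Its groups overlapped, with 4 of 6 aCD3 libraries below every isotype library, a 1.67-fold fall, 1.24-fold after scaling, and a log2 change of -0.66 ± 0.16.

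**Figure D3:**
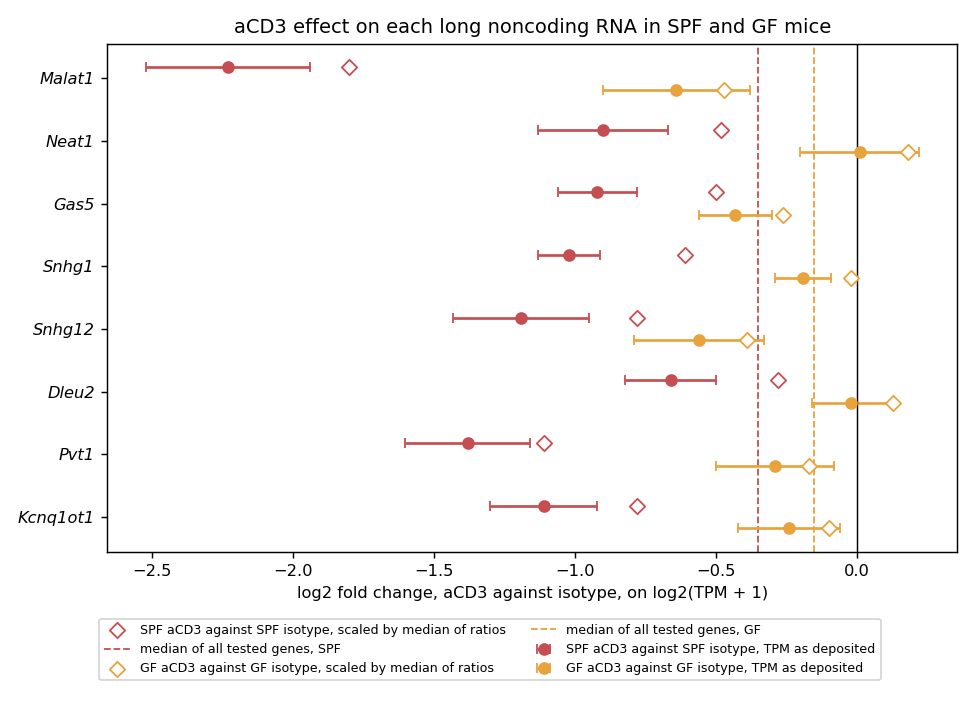
Log2(TPM + 1) difference between aCD3 and isotype for each member in SPF and in GF, with ±1 SE (filled), after scaling by median of ratios (open diamonds), and dashed lines at the medians of all genes. The SPF differences run from -2.23 to -0.66 and the GF differences from -0.64 to 0.01.

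In GF mice the aCD3 libraries were spread widely and only Gas5 was called. Of 8 members, 1 was called lower and 0 higher by limma with Benjamini-Hochberg adjustment, against 4.61% and 2.46% of genes, and 3 had an unadjusted p under 0.05, as did 4351 of 12182 genes. Gas5 fell by 0.43 on the log2 scale, with an SE of 0.13 and an adjusted p of 0.0488, from 206.7 ± 22.1 to 158.0 ± 48.8 TPM. After scaling its change was -0.26 with an adjusted p of 0.0525, Neat1 was at 0.18 and Dleu2 at 0.13, and 0 members were called, with 685 genes higher and 500 lower against 300 and 562. The call was lost without any one of 25 libraries, with limma adjusted p from 0.051 to 0.181. It held only without GF aCD3 F1, M3 or M4, where 3 members were called. Calls over all genes were not counted in those fits. Malat1 (-0.64 ± 0.26, adjusted p = 0.0895) and Snhg12 (-0.56 ± 0.23, 0.0862) missed the threshold, and Neat1 (0.01 ± 0.21) and Dleu2 (-0.02 ± 0.14) lay near 0.

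The 6 GF aCD3 libraries are best read singly. Malat1 was at 8327.0 TPM in F1, 9719.6 in M3 and 8647.3 in M4, all within the GF isotype range of 5578.7 to 11244.1 TPM. In M1 it was at 3533.3, in M2 at 2454.3 and in M5 at 2197.6 TPM, all below that range and all above the SPF aCD3 range. Gas5 was likewise higher in those first 3 libraries than in the other 3, with 204.3 TPM in F1, 209.4 in M3 and 191.6 in M4, against 125.3 in M1, 114.9 in M2 and 102.5 in M5. Histone genes took 5.39%, 7.46% and 6.43% of TPM in F1, M3 and M4, and 23.43%, 23.05% and 25.97% in M1, M2 and M5. Lag3, a coinhibitory receptor induced by stimulation, was at 9.59, 17.03 and 12.33 TPM in the first 3 and at 498.4, 452.0 and 527.0 TPM in the others.

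Members differed in how far they moved in these libraries. In M5 all 8 lay below the GF isotype range, in M2 6 and in M1 5, while in F1, M3 and M4 none did. Snhg1 was within the GF isotype range in 5 of 6 libraries, at 60.46 TPM in M1 and 52.62 in M2, and below it only in M5 at 48.91. The low end of that range was GF isotype F1 at 51.61 TPM. The next lowest isotype library was M2 at 61.22, above both of those GF aCD3 values. Pvt1 was at 2.59, 1.96 and 1.58 TPM in M1, M2 and M5 and at 4.38, 6.96 and 5.96 in F1, M3 and M4. Neat1 was at 94.46 TPM in M1 but 44.68 in M2 and 42.77 in M5, so these 3 libraries did not move together for it. The GF column names fall into runs of sample numbers 25 to 33 and 48 to 54, and within them Malat1 differed by -0.77 and -0.69, Gas5 by -0.49 and -0.40, and Neat1 by 0.15 and -0.27 on the log2 scale (3 aCD3 libraries against 6 and 4 isotype libraries).

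**Figure D4:**
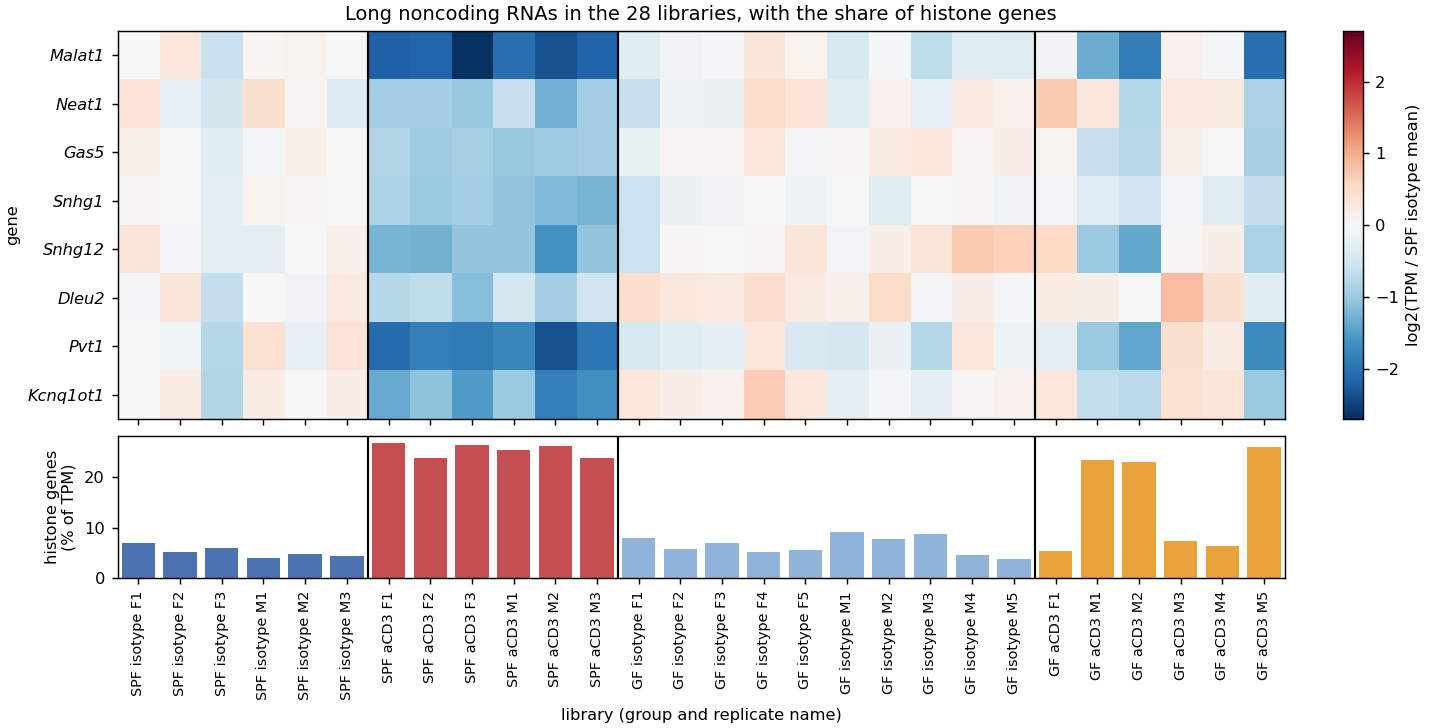
Colour gives log2 of each member's TPM over its SPF isotype mean, per library and ordered by group, and bars give the share of TPM in histone genes (percent). Malat1 and Pvt1 are lowest in the SPF aCD3 libraries and in GF aCD3 M2 and M5, and GF aCD3 M1 is low for Malat1 but not for Neat1.

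The aCD3 effect was smaller in GF than in SPF for all 8 members by point estimate, and the difference itself was called for 3, against 2.44% of genes called higher and 1.04% called lower. The GF side of this difference averages the 6 libraries given singly above, of which F1, M3 and M4 had Lag3 at 9.59 to 17.03 TPM and M1, M2 and M5 at 452.0 to 527.0 TPM, and the part of this spread in the difference was not tested. Snhg12, for example, was at 91.76, 64.78 and 71.06 TPM in F1, M3 and M4 and at 31.58, 24.34 and 34.72 in M1, M2 and M5, and its difference was not called. Snhg1 differed by 0.84 ± 0.14 (SE; limma adjusted p = 0.00404), Malat1 by 1.58 ± 0.39 (0.0304) and Pvt1 by 1.09 ± 0.30 (0.0473). The other 5 lay between 0.49 and 0.91, with adjusted p from 0.0544 to 0.187. After scaling the differences of Gas5, Snhg12 and Dleu2 were 0.24, 0.38 and 0.41 in place of 0.49, 0.63 and 0.64. Malat1 was then at 1.33, Pvt1 at 0.94, Kcnq1ot1 at 0.69 and Snhg1 at 0.59, and these 4 members were called, with 629 genes higher and 794 lower against 297 and 127. Snhg1 remained called without any single library, with adjusted p from 0.000599 to 0.0188. Malat1 lost its call without any one of SPF isotype F2 or M2, SPF aCD3 F3 or M2, or GF aCD3 F1, M3 or M4 (adjusted p 0.0514 to 0.103). Pvt1 lost its call without any one of 22 libraries (0.0519 to 0.133) and kept it without SPF isotype F3, GF isotype F4 or M4, or GF aCD3 M1, M2 or M5. For Snhg12 the difference ran from 0.36 to 0.8 without 1 library, and it was never called. The count of members ran from 1, without any of the 7 libraries on which Malat1 rested, to 7 without GF aCD3 M2 or M5. It was 6 without SPF isotype F3 and 5 without GF aCD3 M1. Calls over all genes were not counted in these fits, so the member counts have no share to stand beside. SPF libraries carry sample numbers 1 to 12 and GF libraries later ones. No label says that the numbers mark batches, and flora cannot be told apart from anything that follows them.

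Under aCD3 all 8 members were called higher in GF than in SPF, against 48.9% of genes called higher and 4.46% called lower. Mean levels were 3.07-fold higher for Malat1, 2.94-fold for Pvt1, 2.41-fold for Kcnq1ot1, 2.05-fold for Neat1, 2.01-fold for Dleu2, 1.95-fold for Snhg12, 1.65-fold for Snhg1 and 1.57-fold for Gas5. This comparison shares its SPF libraries with the one above. The GF aCD3 libraries stood apart from each other: Malat1 was at 2197.6 TPM in M5, 2454.3 in M2 and 3533.3 in M1 and at 8327.0 to 9719.6 in F1, M4 and M3, against at most 2194.0 in SPF aCD3. After scaling, log2 differences ran from 0.19 for Gas5 to 1.02 for Malat1. Of the members 6 were then called, all but Gas5 (limma adjusted p = 0.14) and Snhg12 (0.146), with 1927 genes higher and 2059 lower against 5953 and 543. Snhg12 also lost its call without GF aCD3 F1 (limma adjusted p = 0.074). It did so too with array weights, with a term for the runs of GF sample numbers and by limma voom. Each of these fits called 7 members.

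Between the isotype groups no member was called different by flora. Of 8 members 0 were called by limma between GF and SPF isotype, against 6.42% of genes called higher and 0.755% called lower. An unadjusted p under 0.05 was found for 0 members and for 3110 of 12182 genes. Limma voom on recovered reads called 0 members, with 251 genes higher and 117 lower. Log2 differences ran from -0.15 to 0.25, with limma adjusted p from 0.253 to 0.922. After scaling they ran from -0.30 for Malat1 to 0.11 for Dleu2, with 0 members called. Snhg1 moved from -0.13 (limma adjusted p = 0.407) to -0.28 ± 0.08 (SE; 0.0655). Malat1 was at 8947.1 ± 1707.9 TPM in SPF isotype (n = 6) and 8089.9 ± 1607.6 in GF isotype (n = 10), and Gas5 at 191.8 ± 20.1 and 206.7 ± 22.1. After scaling 66 genes were higher and 133 lower against 782 and 92. Between males and females 0 members were called by limma, against 0.107% of genes, and 0 had an unadjusted p under 0.05 (544 genes did). Their log2 differences ran from -0.19 to 0.04. Limma voom called 0 members, with 7 genes higher and 8 lower in males.

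The members varied together across libraries that belong to groups of different level. Pearson's r on the log2(TPM + 1) scale over 28 libraries ran from 0.658 for Snhg12 and Dleu2 to 0.948 for Malat1 and Kcnq1ot1, and from 0.209 to 0.892 after removing group means. Each r is a description, since the libraries share depth and composition. The ratio of host genes Gas5 over Snhg1 had means of 2.49 ± 0.146 (isotype) and 2.7 ± 0.235 (aCD3) over SPF libraries, against 2.95 ± 0.357 and 2.51 ± 0.443 over GF libraries (SD). Genes with the most similar pattern were Rasgrp1, a Ras exchange factor of T cells, for Malat1 (r = 0.983), Gbf1 for Kcnq1ot1 (0.985), Prkcb, a protein kinase C, for Pvt1 (0.973), Sbds, a ribosome maturation factor, for Gas5 (0.971) and Tox, a nuclear factor of T cell states, for Dleu2 (0.962). Rps27, a ribosomal protein, led for Snhg12 (0.949), Dnajb2 for Snhg1 (0.946) and Zkscan8 for Neat1 (0.901), each among 7339 genes.

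Among the rows that lie inside a member, Snord47 of Gas5 had the lowest log2 change. It was at 76.3 to 207.3 TPM in SPF isotype (median 157.2) and 18.5 to 53.4 TPM in SPF aCD3 (median 33.3). It fell by 2.10 on the log2 scale with an SE of 0.36 (limma adjusted p = 3.33e-05), on 2 to 23 reads per library. Snora44 (-1.75 ± 0.47, adjusted p = 0.00231) and Snora16a (-1.26 ± 0.40, 0.00793) inside Snhg12, Snord22 inside Snhg1 (-1.06 ± 0.44, 0.0372) and H2afy3 inside Pvt1 (-1.08 ± 0.47, 0.0467) also fell. Of 11 inner rows 5 were called lower and 0 higher, a share close to the 50.7% of all genes called lower, and after scaling 2 were lower, Snord47 and Snora44. The other 6 did not pass: Snord99 was at -0.63 ± 1.18 (adjusted p = 0.651), Snora61 at -0.73, Kcnrg at -0.38, Mir15a at -1.93 and Mir16-1 at 1.11. Mascrna, with 8 reads in all, has no usable value. Inner rows share their reads with the host or lie within its length, so they are not separate evidence. Mir15a and Mir16-1 held 35 and 76 reads in all.

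Among genes within 50 kb of a member both directions occurred. Of 31 tested, 3 were called higher and 12 lower in SPF aCD3, with a median log2 change of -0.21 against -0.35 over all genes, and 10 higher and 5 lower after scaling. Over all genes 14.2% were higher and 50.7% lower, and after scaling 3727 and 3575 of 12182. Myc, beside Pvt1, was at 79.7 ± 14.8 TPM in SPF isotype and 87.7 ± 31.3 in SPF aCD3 (0.08 ± 0.14, limma adjusted p = 0.632; 0.50 and 0.00472 after scaling). The 12 include Kcnq1, whose reads are nearly all those of Kcnq1ot1. Spryd7, near Dleu2, fell from 6.25 ± 0.931 to 1.65 ± 0.298 TPM (-1.45, adjusted p = 2.91e-05). Rcc1, the exchange factor of Ran, lies near Snhg12 and rose from 3.47 ± 0.958 to 9.63 ± 2.47 TPM. Nxf1, an mRNA export receptor near Snhg1, fell from 58.2 ± 7.48 to 35.3 ± 3.09 TPM. After scaling the log2 changes were -1.17 for Spryd7, 1.62 for Rcc1 and -0.28 for Nxf1.

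Genes of the same machinery moved in both directions in SPF aCD3. Counts are out of the genes tested and stand beside 50.7% of all genes lower, 14.2% higher and a median of -0.35, by limma with Benjamini-Hochberg adjustment over all genes. Of 16 other snoRNA host genes 9 were lower and 0 higher (5 and 0 after scaling), with a median of -0.39. Snhg8 fell by 1.17 (adjusted p = 3.26e-05) and Epb41l4aos by 1.13 (7.79e-05). The 14 snoRNP proteins, which assemble with those RNAs, had 7 lower and 2 higher (2 and 7 after scaling). Nop10, of the H/ACA particle, fell by 0.82 (6.86e-06), and Nhp2 rose by 0.79 (0.000612).

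Of 16 nuclear speckle proteins 11 were lower and 3 higher (7 and 6 after scaling). Srsf5 fell by 1.15 (adjusted p = 3.92e-05) and Tra2b by 1.07 (5.06e-06), while Srsf1, also a splicing factor, rose by 0.95 (1.37e-06). Of 14 paraspeckle proteins 4 were lower and 2 higher (1 and 9 after scaling), with Pspc1 down by 0.69 (9.04e-05) and Nono up by 0.30 (0.00181). Of 14 nonsense-mediated decay factors 9 were lower and 1 higher (5 and 5 after scaling). Smg1, the kinase of the pathway, fell by 0.96 (9.76e-06), and Upf1, its helicase, was at -0.25 (0.00548) and 0.16 after scaling, where its direction flips. Rbm8a, of the exon junction complex, rose by 0.38 (0.000134).

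Of 17 other long noncoding RNAs tested 10 were lower and 1 higher (7 and 4 after scaling), with a median of -0.53. Peg13, an imprinted RNA, fell from 106.9 ± 15.9 to 8.32 ± 1.59 TPM (-3.54 ± 0.49, limma adjusted p = 4.64e-06), more than any member. Lncpint, a p53-induced RNA, fell from 82.1 ± 20.7 to 12.9 ± 1.83 TPM (-2.55 ± 0.36, 5.32e-06). Miat rose by 0.83 (3.53e-05). Of 14 p53 targets 9 were lower and 0 higher (5 and 3 after scaling), and Sesn1 fell by 1.41 (9.51e-06). In GF aCD3 against GF isotype each of these 7 lists had 0 genes called higher and at most 3 called lower, against 2.46% and 4.61% of all genes. After scaling 2 paraspeckle, 2 nuclear speckle and 1 snoRNP gene were called higher there, and at most 2 genes of a list lower, against 685 and 500 of 12182 genes. Of the list genes named here, Upf1 alone changed direction in SPF on scaling, while others moved by more than 1.5 times: Nono to 0.72, Rbm8a to 0.79, Nhp2 to 1.2, Pspc1 to -0.31, Nop10 to -0.40, Smg1 to -0.56, Tra2b to -0.65, Srsf5 to -0.73, Snhg8 to -0.75 and Epb41l4aos to -0.72.

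**Figure D5:**
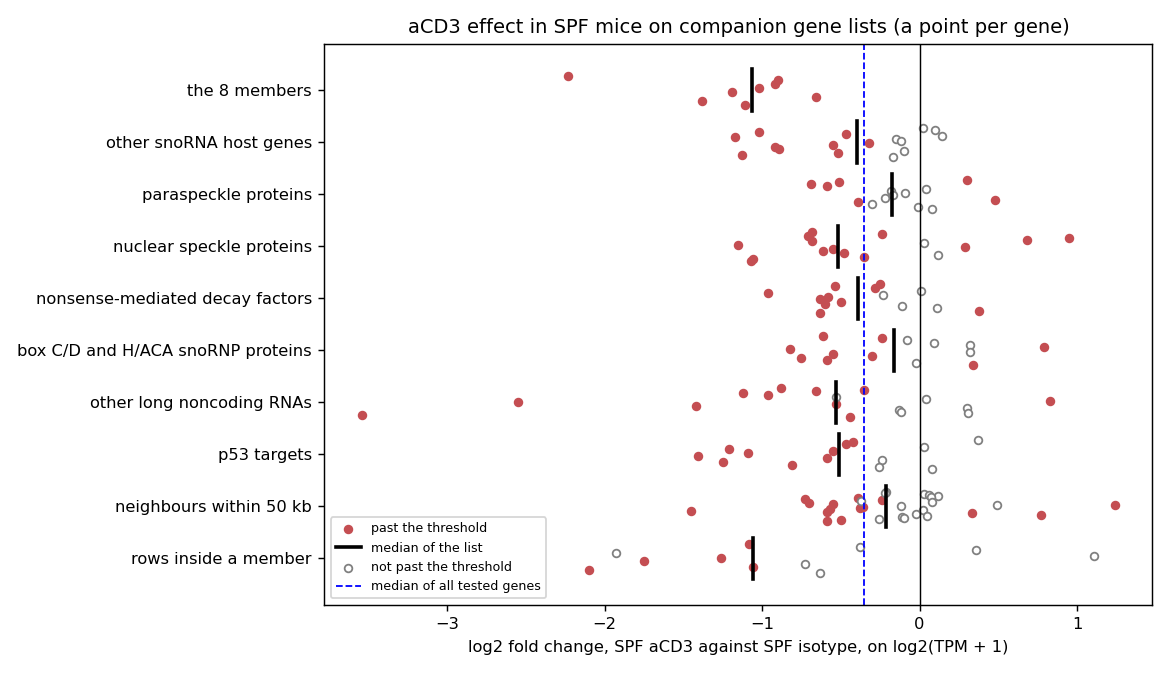
Log2(TPM + 1) change in SPF aCD3 against SPF isotype for each gene of the lists and for the 8 members, filled where past the threshold, with a bar at each list's median and a dashed line at the median of all genes, -0.35. Member changes run from -2.23 to -0.66, and Peg13 at -3.54 is the lowest point.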

How the data were processed

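The deposited table holds TPM per gene, which the authors computed with HOMER's analyzeRepeats.pl over mm10 transcripts, per the file headers. In 99.24% of rows length equals genomic span. The aligner version and strand use are not given in the sources used here. The labels name the molecule polyA RNA and the design text a total RNA kit. The submitters' processing notes list Cell Ranger 7.1.0, R 4.4.2 and Seurat 5.1.0, with no role. Another 26 columns matched no sample and were not used.

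Testing covered genes that reached 1 TPM in 6 or more libraries, with limma 3.58.1 (R 4.3.3) on log2(TPM + 1), with 4 group means and a sex term, Benjamini-Hochberg adjusted within 6 comparisons at 0.05, and tested on simulated data. Whole reads were recovered from TPM times length (100.0% whole within 0.1). Python 3.11.15 and pandas 2.3.3 were used. Members and lists were chosen with earlier results of these data known. Named genes were the members, rows inside or within 50 kb of them, the most similar genes, and the 2 highest and 2 lowest called genes per list. Lists were other snoRNA hosts, paraspeckle, speckle, decay and snoRNP proteins, other long noncoding RNAs and p53 targets. Pseudocounts, filters, scalings, sex term, array weights, run, replicate block and left-out libraries were varied.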

Additional observations from a re-analysis of the deposited data

Results flagged for a closer look

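Of 32 sets of a member in a group, 3 had a library far from the others, where chance gives about 1 in 20. In SPF isotype, F3 was lowest for Snhg1 at 64.6 TPM and for Kcnq1ot1 at 4.09 TPM, and it had the highest Rn45s share, 22.92% of TPM. In GF isotype, F4 was highest for Kcnq1ot1 at 11.4 TPM. The difference of the aCD3 effects between GF and SPF was called for Malat1 (1.58), Snhg1 (0.84) and Pvt1 (1.09) on the log2 scale. This was by the interaction test of limma, which called 2.44% of genes higher and 1.04% lower. Pvt1 lost its call without any one of 22 libraries and Malat1 without any one of 7.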

How the results depend on the processing

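All 8 members stayed called lower in SPF aCD3 under every alternative run, left-out libraries included (8 to 8). The list was drawn up with this contrast known, so nothing is read from that. Of the other values, the count of members called for the GF aCD3 effect was 0 under median-of-ratios, TPM without Rn45s and histone rows, pseudocount 0.1, no filter, the replicate block and limma voom, 2 without the sex term or with GF run as a term, and 3 with array weights, a fit that did not fully converge. The count for the difference of effects was 1 with no filter and with the replicate block, where Malat1 and Pvt1 lost their calls, 2 with pseudocount 5 and array weights, where Pvt1 did, and 4 under median-of-ratios, TPM without Rn45s and histone rows, pseudocount 0.1 and voom, which added Kcnq1ot1. Leaving out 1 library gave 0 to 3 for the GF effect, 1 to 7 for the difference and 7 to 8 for GF against SPF under aCD3. Calls over all genes were not counted without 1 library, and the counts that follow are from the other settings. Over all genes, the GF effect called 0 to 789 higher and 0 to 2847 lower across settings against 300 and 562, the difference 118 to 831 and 41 to 795 against 297 and 127, GF against SPF isotype 66 to 2215 and 51 to 223 against 782 and 92, and GF against SPF aCD3 1927 to 6025 and 198 to 2059 against 5953 and 543. SPF calls ran from 1432 to 3727 higher and 3575 to 6884 lower.

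Small log2 values changed sign. Neat1 in the GF effect was -0.01 without the sex term, -0.06 with array weights and -0.03 with GF run, and in GF against SPF isotype -0.12 by median-of-ratios, -0.08 with array weights, -0.08 with the replicate block, -0.1 with GF run and -0.04 by voom. Gas5 in that comparison was -0.05 by median-of-ratios and Snhg12 -0.05 with GF run. Sex differences became 0.02, 0.01 and 0.02 for Gas5 (median-of-ratios, array weights, voom), 0.01 and 0.03 for Snhg1 (median-of-ratios, voom), and 0.02, 0.09, 0.02 and 0.05 for Snhg12 (median-of-ratios, array weights, GF run, voom). Dleu2 in the GF effect was 0.13 by median-of-ratios, 0.09 without Rn45s and histone rows and 0.12 by voom. Without 1 library, values ran from -0.17 to 0.17 (Neat1, GF effect), -0.07 to 0.14 (Neat1, isotype), -0.13 to 0.07 (Dleu2, GF effect) and -0.01 to 0.2 (Kcnq1ot1, isotype), and for sex from -0.13 to 0.05 (Neat1), -0.05 to 0.06 (Gas5), -0.07 to 0.02 (Snhg1), -0.09 to 0.14 (Snhg12), -0.04 to 0.05 (Dleu2) and -0.02 to 0.09 (Pvt1). The cause was not tested.

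The labels do not say whether same-named libraries are paired. After removing group and sex means, 1 of 12 same-named pairs had a correlation over 0.1 and 1 library matched its own name best. Low correlations cannot exclude a shared litter or day. Limma voom on recovered reads was chosen after seeing the data, in place of planned edgeR and DESeq2 fits, which were not run. Depth limits the inner rows, which were at 0 reads in 21 libraries for Mascrna, 8 for Mir15a, 5 for Snord99, 2 for H2afy3 and 2 for Mir16-1.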
